A study of Mus musculus with 32 samples.

Results

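Aminoacyl-tRNA synthetases were taken as the protein-coding genes of GENCODE M21 whose symbols follow the pattern of these enzymes, such as Aars, Aars2, Eprs, Farsa, Farsb and Tarsl2. The rule gave 38 of 21938 protein-coding genes, namely 20 genes of the cytosolic set, 17 genes of the mitochondrial set, whose symbols end in 2, and Tarsl2, a threonyl-tRNA synthetase-like gene that was kept apart. Each synthetase joins an amino acid to its tRNA, and the charged tRNAs feed the ribosome. Mammalian cells have a set of enzymes for the cytosol and a largely separate set, also encoded in the nucleus, for the mitochondrial ribosome, whereas Kars and Gars each provide the enzyme for both compartments. Several cytosolic enzymes, including the bifunctional Eprs, sit in a multisynthetase complex held together by Aimp1, Aimp2 and Eef1e1, and amino acid shortage raises transcription of many cytosolic synthetase genes through Atf4.

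The data were ChIP-seq peak lists from mouse acute myeloid leukemia driven by MLL-AF9, in cells with or without Kat2a, a histone acetyltransferase that acts on H3K9. H3K9ac and H3K27ac mark active promoters, H3K4me3 marks start sites and H3K4me1 marks their flanks and enhancers. Each of the 4 marks had 2 replicates per genotype, giving 16 lists, and 16 input libraries were not analysed here. WT cells were Kat2a Flox/Flox, Mx1-Cre -/- and KO cells were Kat2a Flox/Flox, Mx1-Cre +/-, and both had received pIpC, which induces Cre from the interferon-responsive Mx1 promoter. Bone marrow was taken 4 to 6 weeks after pIpC, depleted of lineage-positive cells, transduced with the MLL-AF9 retrovirus and transplanted into lethally irradiated recipients. Leukemic marrow was pooled from 5 WT and 4 KO animals, and the replicates were separate cell samples of these pools, so that differences from animal to animal are not part of the replicate spread. Immunoprecipitations used 5000000 cells per condition for H3K9ac and H3K4me3, and 500000 for H3K27ac and H3K4me1. Read depth is unknown from peak lists. In pooled cells, a mark on fewer cells and less of the mark per cell cannot be told apart.

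Replicate 1 of H3K27ac and of H3K4me1 stood apart from the other libraries. For H3K27ac the median peak width in replicate 1 was 48 bp (WT) and 49 bp (KO), compared with 483 and 505 bp in replicate 2. For H3K4me1 it was 49 bp in both replicate 1 lists, against 215 and 425 bp in replicate 2. In replicate 1, 0.0485% (WT) and 0% (KO) of the H3K27ac peaks had a q-value up to 0.05. For H3K4me1 these shares were 0% (WT) and 0.0182% (KO). The paper left out 1 replicate of each of these marks for lack of clear separation from control, without giving its number. Values for these marks are therefore given for replicate 2, with replicate 1 beside them as weak calls. The 4 H3K9ac lists held 27657 to 33605 peaks and the 4 H3K4me3 lists 15685 to 23297, with H3K4me3 WT replicate 2 the shortest. Among 8 leukocyte and myeloid leukemia markers, 7 had an H3K9ac promoter peak in all 4 libraries, and Mpo lacked it in KO replicate 1. Of 4 B cell markers and 4 markers of tissues outside the marrow, 0 had an H3K9ac peak in any library. Cd3d was the only gene of 4 T cell markers with an H3K9ac peak, with a fold enrichment of 11 and 10.6 (WT) and 7.73 and 9.49 (KO), both KO values being below both WT values. Such a separation was found for 19.2% of 10837 genes. Cd3e, Cd4 and Cd8a had none. Col1a1 and Pdgfrb, 2 of 4 stromal and endothelial markers, had weak peaks in all 4 libraries, and their summed H3K9ac fold enrichment was 6.8 and 7.79 in WT and 5.69 and 6.23 in KO. The 4 erythroid markers summed to 8.73 and 0 in WT and 7.21 and 12.7 in KO, and Gata1 had no peak in any library. Leukocyte and myeloid markers summed to 114 and 127.5 (WT) and 80.2 and 118 (KO), and the part of other cells in the results was not tested. Kat2a itself had an H3K9ac promoter peak of 8- and 4.58-fold enrichment in WT and 7.48- and 11.8-fold in KO. The deletion leaves the Kat2a promoter in place, so these values do not check the genotype labels.

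Promoter sequences were read from RefSeq (GRCm38.p6), from 250 bases before to 50 bases after each start site, and 28 of the 38 genes matched. Genes without an entry included Cars, Hars, Hars2, Lars, Nars, Pars2, Rars, Vars and Wars. As 73.7% of the genes matched, under the 80% needed for a check over the whole family, such a check was void and matches are given gene by gene as a description. The amino acid response element, searched as TGATGNAA on both strands, is the sequence bound by Atf4 with C/EBP partners. It was present in 3.53% of 16522 protein-coding promoters and in Aars, Gars, Iars, Tars and Yars, which are 5 of 13 cytosolic and 0 of 14 mitochondrial promoters searched. The stretches around the matches of Gars, Iars, Tars and Yars are shown as examples of the element. They read 5′ to 3′ on the strand of the gene, with the element in capitals.
Gars (chr6:55037931-55038000, + strand): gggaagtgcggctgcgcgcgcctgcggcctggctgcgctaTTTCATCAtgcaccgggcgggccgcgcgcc
Iars (chr13:49682126-49682155, + strand): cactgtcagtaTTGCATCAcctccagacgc
Tars (chr15:11399666-11399713, - strand): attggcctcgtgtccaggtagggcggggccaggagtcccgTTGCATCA
Yars (chr4:129189895-129189924, + strand): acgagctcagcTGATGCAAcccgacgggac
The element was on the opposite strand in Gars, Iars and Tars and on the strand of the gene in Yars. The Gars and Tars stretches overlapped no annotated exon, and those of Iars and Yars overlapped an annotated exon.

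The element of Nrf1, a factor of nuclear genes for mitochondrial proteins, was searched as GCGCATGC on both strands. It was present in 3.76% of all promoters, in 3 of 14 mitochondrial and in 0 of 13 cytosolic synthetase promoters searched, and the difference between the classes was not tested. The 3 stretches are shown with the element in capitals, 5′ to 3′ on the strand of the gene.
Wars2 (chr3:99140986-99141067, + strand): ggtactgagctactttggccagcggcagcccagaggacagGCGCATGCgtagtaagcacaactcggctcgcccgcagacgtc
Vars2 (chr17:35667593-35667678, - strand): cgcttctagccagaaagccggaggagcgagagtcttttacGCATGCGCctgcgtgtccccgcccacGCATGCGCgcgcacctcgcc
Rars2 (chr4:34614895-34614924, + strand): cggccccgtgtGCATGCGCactccacactt
Vars2 held 2 copies. The ETS element CCGGAAG was present in 12.3% of all promoters and in 9 of the 28, namely Cars2, Farsa, Gars, Kars, Mars, Mars2, Rars2, Sars and Sars2. The E-box CACGTG was present in 8.11% of all promoters and in Aars, Ears2, Farsb, Iars and Tars, so that Aars, Iars and Tars held it together with the amino acid response element. TATAAA was present in 12.9% of all promoters and in Aars2, Farsa and Tars2. No match overlapped a match to another of the 5 elements. A match is a description of letters and was not tested as a binding site.

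Promoter peaks were those overlapping the window from 1000 bp upstream to 500 bp downstream of any annotated start site of a gene. All 38 genes had an H3K9ac promoter peak in all 4 libraries, compared with 49.4% of all protein-coding genes and 96.5% of those with H3K4me3 in all 4 libraries. An H3K4me3 peak was present in both WT replicates for 36 of 38 genes and in both KO replicates for 38, against 48.4% and 50% of all genes. A peak in KO replicate 2 without a peak in WT replicate 2 was found for 5.26% of the family and 5.26% of all genes. These shares have unlike bases, as all 38 family members but only 53.0% of all genes had a peak in KO replicate 2. The missing peaks were those of Mars, the cytosolic methionyl enzyme, and Wars2, the mitochondrial tryptophanyl enzyme, both in WT replicate 2. In KO the H3K4me3 fold enrichment of Mars was 7.08 and 4.54, and that of Wars2 was 6.10 and 5.43. Hars and Hars2 face each other across a shared promoter and were served by the same H3K9ac peaks, so that the family had 37 distinct H3K9ac promoter regions rather than 38.

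**Figure D1:**
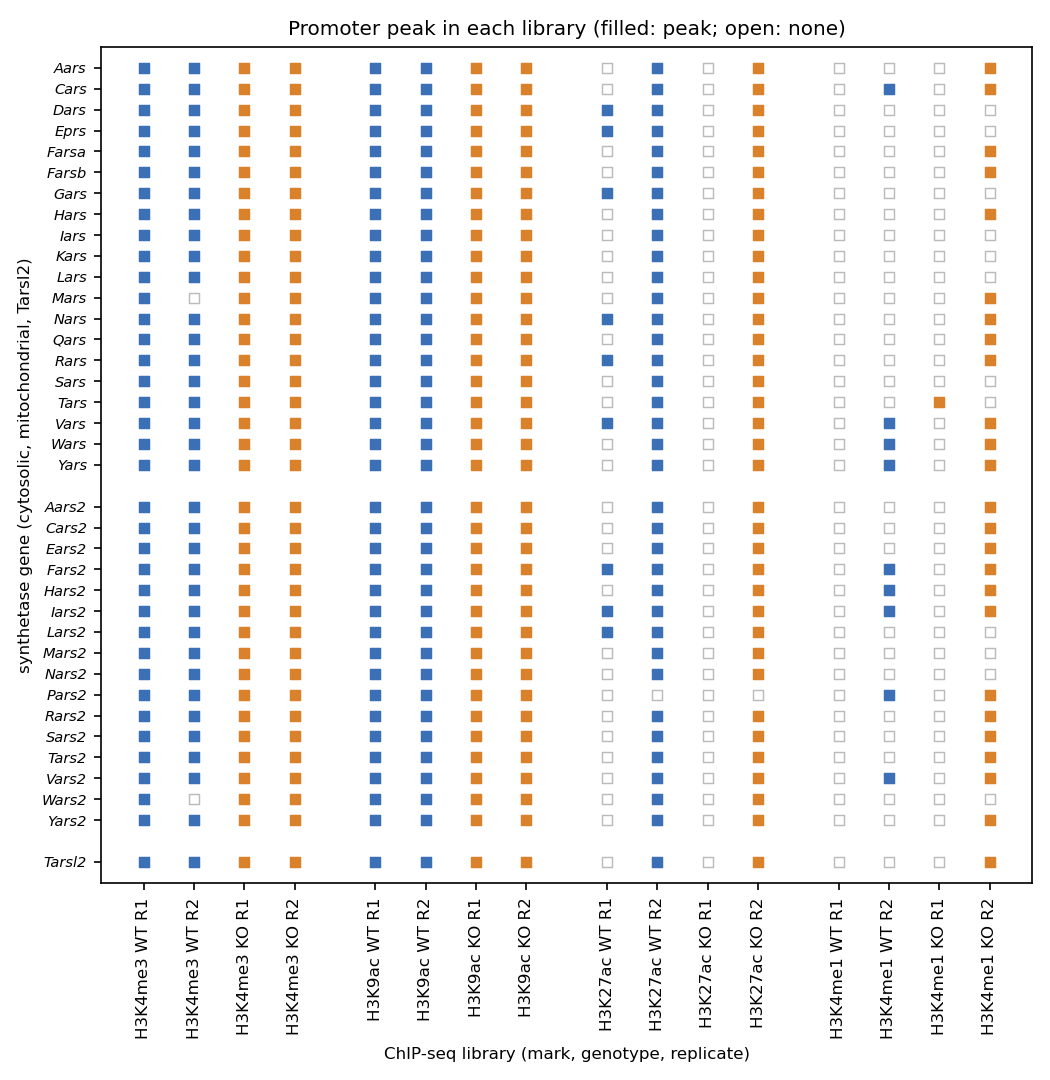
Promoter peaks of 37 of the 38 synthetase genes (rows) in the 16 ChIP-seq libraries (columns), blue for WT and orange for KO, with filled squares for a peak and open squares for none. H3K9ac columns are filled throughout, H3K4me3 lacks a peak only at Mars and Wars2 in WT replicate 2, and replicate 1 of H3K27ac and H3K4me1 is mostly open.

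The cytosolic genes had wider H3K9ac peaks than the mitochondrial genes in each of the 4 libraries. Width was that of the widest promoter peak of a gene. In WT the median width was 1441 and 1424.5 bp for cytosolic genes and 1372 and 1157 bp for mitochondrial genes. In KO it was 1254 and 1323 bp for cytosolic genes and 1007 and 1166 bp for mitochondrial genes. Both classes therefore lay on either side of the median of all protein-coding genes with a peak in 3 of the 4 libraries, which was 1296 and 1332 bp in WT and 1103 and 1211 bp in KO; in WT replicate 1 both lay above it. The cytosolic median exceeded the mitochondrial by 185 ± 91.1 bp (SD, n = 4 libraries), with a range of 69 to 267.5 bp. With Kars and Gars left out, as they serve both compartments, the mean difference was 107.5 bp. This is a description over genes, which are not replicates, and no test was made of it.

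Fold enrichment, taken from the strongest promoter peak, followed the same order for H3K9ac in 3 of the 4 libraries. Cytosolic genes had medians of 12.9 and 14.3 (WT) and 11.7 and 12.9 (KO). Mitochondrial genes had medians of 10.9 and 10.5 (WT) and 9.63 and 13.2 (KO). The order was thus turned in KO replicate 2, and the ratio of the cytosolic to the mitochondrial median was 1.19 ± 0.161 (SD, n = 4 libraries). For H3K4me3 the order of the classes differed between libraries. The difference in median width was 74.5 and -156.5 bp in WT and -68.5 and 50.5 bp in KO, cytosolic minus mitochondrial, with a mean of -25 ± 108 bp (SD, n = 4 libraries). The classes also changed order between the replicate 2 libraries of H3K27ac, with medians of 768 (cytosolic) and 648 bp (mitochondrial) in WT and 1109 and 1124 bp in KO. For H3K4me1, replicate 2 gave 183 and 226 bp in WT and 600 and 475.5 bp in KO. These medians rest on 4 cytosolic and 5 mitochondrial genes with a peak in WT, and on 12 genes of each class in KO. In replicate 1 of these marks at most 9 synthetase genes had a peak, and only H3K27ac WT had genes of both classes. Its medians of 87 and 48 bp rest on 6 cytosolic and 3 mitochondrial genes. As 0.0485% of the peaks in that list had a q-value up to 0.05, no order of the classes is read from it.

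**Figure D2:**
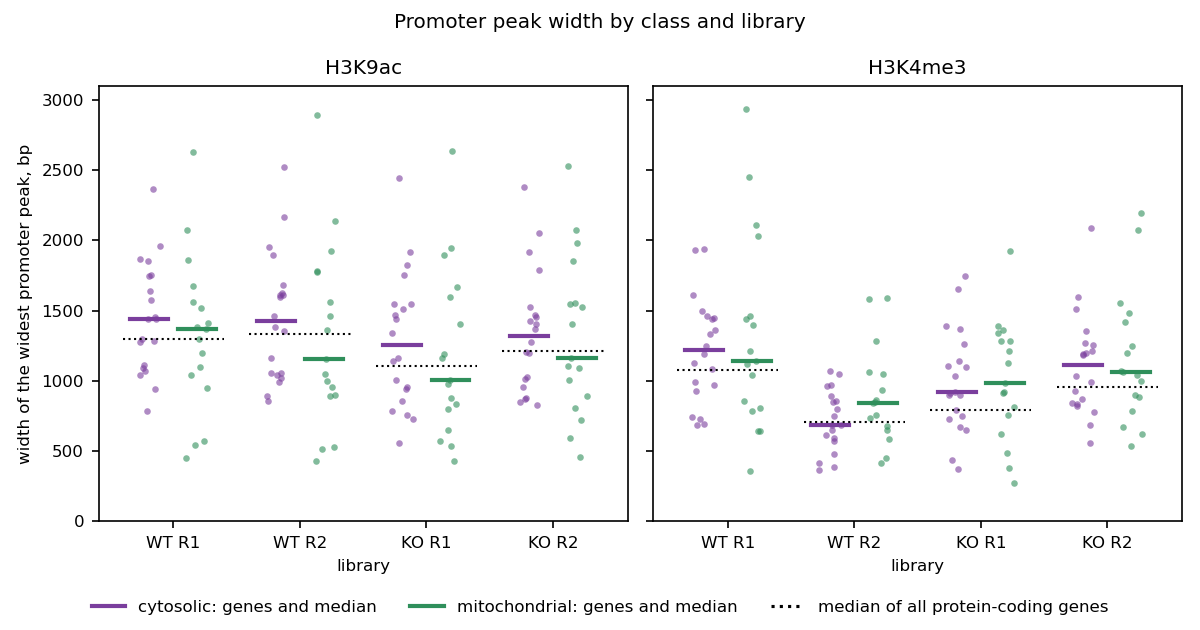
Width in bp of the widest H3K9ac (left) and H3K4me3 (right) promoter peak of each cytosolic (purple) and mitochondrial (green) synthetase gene in each library, with class medians as bars and the median of all protein-coding genes with a peak as a dotted line. The purple H3K9ac bar is above the green bar in all 4 libraries, by 69 to 267.5 bp, whereas the order of the H3K4me3 bars differs between libraries.

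Ribosomal protein genes showed a separation in the same direction. Genes of the cytosolic ribosome, taken as symbols beginning with Rpl or Rps and a digit and therefore including the S6 kinase genes, had median H3K9ac widths of 1763 and 1863.5 bp in WT and 1438.5 and 1561.5 bp in KO. Those of the mitochondrial ribosome had 1184 and 1089 bp in WT and 1021.5 and 1074.5 bp in KO. Translation factor genes lay between them, with 1440 and 1397 bp in WT and 1236.5 and 1239 bp in KO. The accessory genes of aminoacylation were narrower than either synthetase class. These 13 genes hold the scaffold proteins Aimp1, Aimp2 and Eef1e1, the subunits Gatb, Gatc and Qrsl1 that make mitochondrial glutaminyl-tRNA, the formyltransferase Mtfmt, editing enzymes, and Sepsecs and Pstk of selenocysteine synthesis. All 13 had an H3K9ac peak in each library, and their median width was 1007 and 988 bp in WT and 947 and 959 bp in KO.

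By the geometric mean over the 4 libraries, the widest H3K9ac peaks of the cytosolic class were those of Vars, Kars and Gars. Vars, the valyl enzyme, had a peak of 2363 and 2526 bp in WT and 2442 and 2382 bp in KO. Kars, the lysyl enzyme of both compartments, had 1865 and 2165 bp in WT and 1920 and 2050 bp in KO. Gars, the glycyl enzyme of both compartments, had 1744 and 1681 bp in WT and 1546 and 1788 bp in KO. In these deposited widths the groups overlapped for Vars, Kars and Gars. After quantile normalization both KO values exceeded both WT values in each, as they did for 21.9% of 10837 genes. Vars lay at percentile 88.0 to 93.9 of all genes with a peak. By the same mean the narrowest were Lars, Cars and Rars, the leucyl, cysteinyl and arginyl enzymes. Lars had 787 and 892 bp in WT and 730 and 830 bp in KO. Cars had 1092 and 1021 bp in WT and 559 and 875 bp in KO. Both KO values of Cars were below both WT values, as was the case for 36.4% of 10837 genes. Rars had 941 and 859 bp in WT and 755 and 959 bp in KO. In the 4 libraries these 3 genes lay between percentiles 14.3 and 38.6.

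The mitochondrial class reached both narrower and wider peaks than the cytosolic class in each of the 4 libraries. Rars2, the arginyl enzyme, had a wide H3K9ac peak of 1861 and 2138 bp in WT and 1948 and 1851 bp in KO. Mars2, the methionyl enzyme, had 2076 and 1774 bp in WT and 1668 and 1979 bp in KO. In neither gene were the genotypes separated. Aars2, the alanyl enzyme, was narrowest in 3 of the 4 libraries, with 448 and 516 bp in WT and 432 and 457 bp in KO, at percentile 7.57 to 8.87. Pars2, the prolyl enzyme, had 545 and 427 bp in WT and 569 and 721 bp in KO. Lars2, the leucyl enzyme, had 574 and 530 bp in WT and 533 and 593 bp in KO. Both KO values of Pars2 exceeded both WT values, as was the case for 4.21% of 10837 genes. Pars2 was also the only synthetase gene without an H3K27ac peak in any of the 4 libraries.

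**Figure D3:**
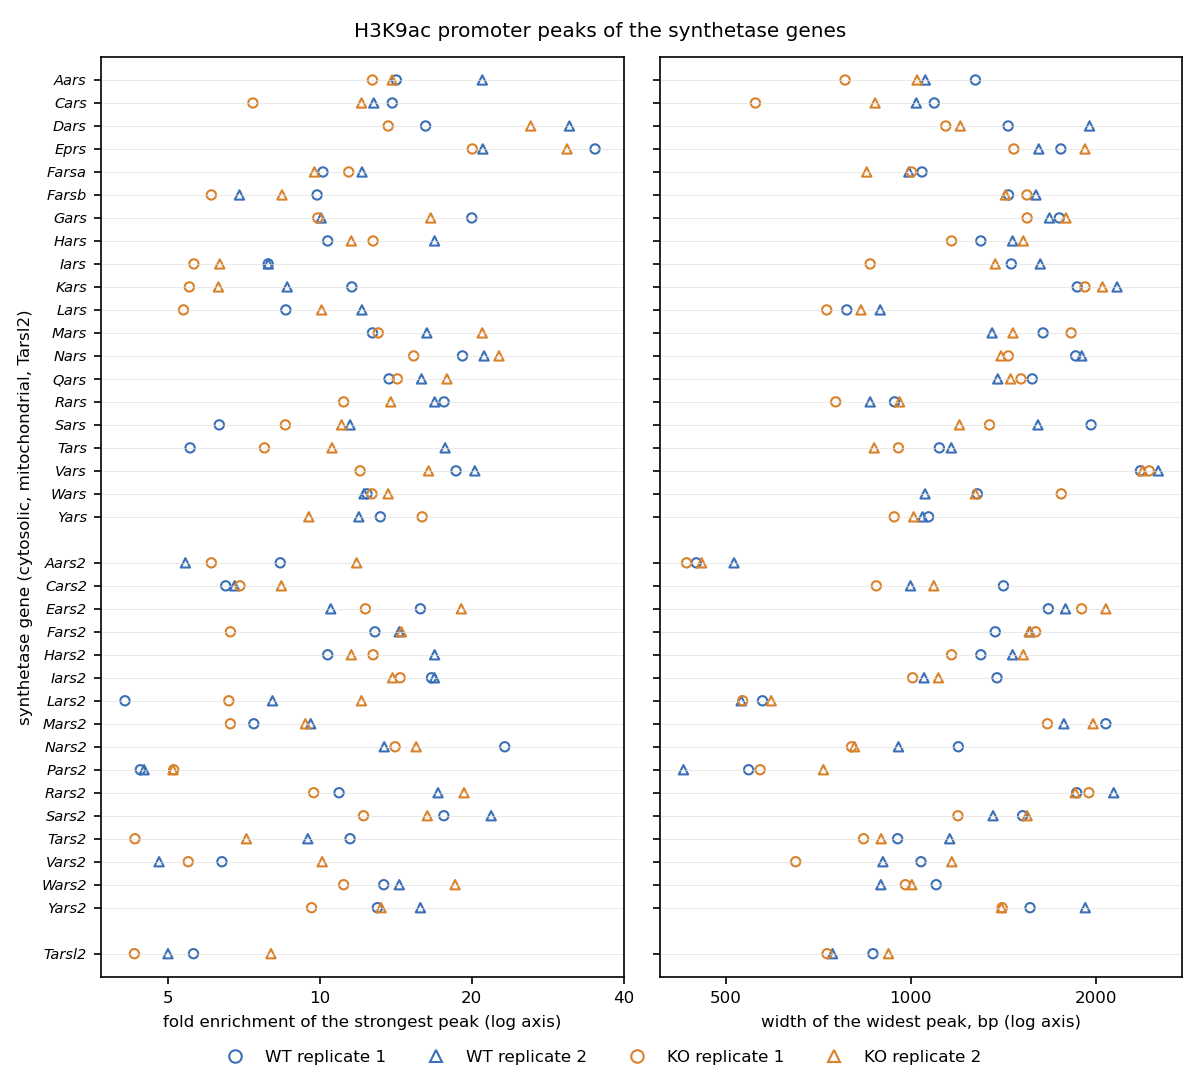
Fold enrichment of the strongest (left) and width in bp of the widest (right) H3K9ac promoter peak of 37 of the 38 genes, both on log axes, for WT (blue) and KO (orange), with circles for replicate 1 and triangles for replicate 2. Vars is wide at 2363 to 2526 bp and Aars2 narrowest in 3 of 4 libraries at 432 to 516 bp, and most genes have WT and KO symbols interleaved.

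H3K9ac width in the mitochondrial class differed with the layout of the promoters. A gene was called divergent when a protein-coding gene on the other strand started inside its promoter window. This was the case for 10 of 38 synthetase genes, 6 mitochondrial and 4 cytosolic, against 11.9% of all protein-coding genes and 22.2% of those with H3K4me3 in all 4 libraries. The pairs included Ears2 with Ubfd1, Fars2 with Lyrm4, Hars with Hars2, Kars with Terf2ip, Rars2 with Orc3, Sars2 with Mrps12, Wars with Wdr25 and Yars with S100pbp. Mrps12 is itself a protein of the mitochondrial ribosome, which reads the seryl-tRNA that Sars2 supplies. The start sites were nearest in Rars2, where that of Orc3 lay 13 bp upstream. Divergent mitochondrial genes had median H3K9ac widths of 1597 and 1673.5 bp in WT and 1746 and 1704.5 bp in KO. The 11 other mitochondrial genes had 1100 and 955 bp in WT and 838 and 1004 bp in KO. The cytosolic class had the opposite order in WT, with 1291.5 and 1259.5 bp for its 4 divergent genes and 1449.5 and 1491.5 bp for the 16 others. In KO these were 1461 and 1399 bp for the divergent genes and 1241.5 and 1288 bp for the others. Over all protein-coding genes with a peak divergent promoters had medians of 1645 and 1647 bp (WT) and 1397 and 1518 bp (KO), and the others 1208 and 1253 bp (WT) and 1033 and 1143 bp (KO). With the 10 divergent genes left out, the mean difference between the cytosolic and mitochondrial medians was 393 bp in place of 185 bp for H3K9ac width, and the ratio of their median fold enrichments was 1.56 in place of 1.19. The same step turned the H3K4me3 width difference from -25 to 88.4 bp and raised that of H3K27ac in replicate 2 from 52.5 to 313.5 bp. A peak over such a promoter cannot be assigned to either of the genes.

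Some shared promoters also differed in where H3K9ac was highest. In 24 of the 28 genes without a divergent gene, the summit of the strongest peak lay downstream of the nearest start site in all 4 libraries (85.7%, against 65.9% of all such genes), and it lay upstream in all 4 for Cars. Among the 10 divergent genes it lay upstream in all 4 libraries for 6, namely Ears2, Hars2, Kars, Rars2, Sars2 and Yars, and downstream in all 4 for Fars2, Hars and Wars. Hars2 and Hars were read from the same peak. For H3K4me3 the summit lay upstream in all 4 libraries for 2 of the 10, against 22.3% of all divergent genes. Over all genes with an H3K9ac peak in the 4 libraries, the summit was upstream in each library for 32.5% of divergent and 9.10% of other genes. For Sars2 it lay 351 and 327 bp upstream in WT and 376 bp upstream in both KO libraries, on the side of Mrps12. Yars had it at -296 and -538 bp in WT and at -352 and -375 bp in KO, negative for upstream. Direction did not separate the genotypes in any of these genes. A relation of the ETS element to these summits was not tested, and Cars2, Farsa, Gars, Mars, Mars2 and Sars held it without a divergent gene. The ETS elements of Kars and Sars2 lie in their shared promoters, and both stretches overlapped an annotated exon. They are shown in capitals, 5′ to 3′ on the strand of the synthetase gene.
Kars (chr8:112011342-112011371, - strand): cgccctctttcCCGGAAGaggcaggactta
Sars2 (chr7:28741803-28741832, + strand): acctccagcccCTTCCGGggttcctcctta

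**Figure D4:**
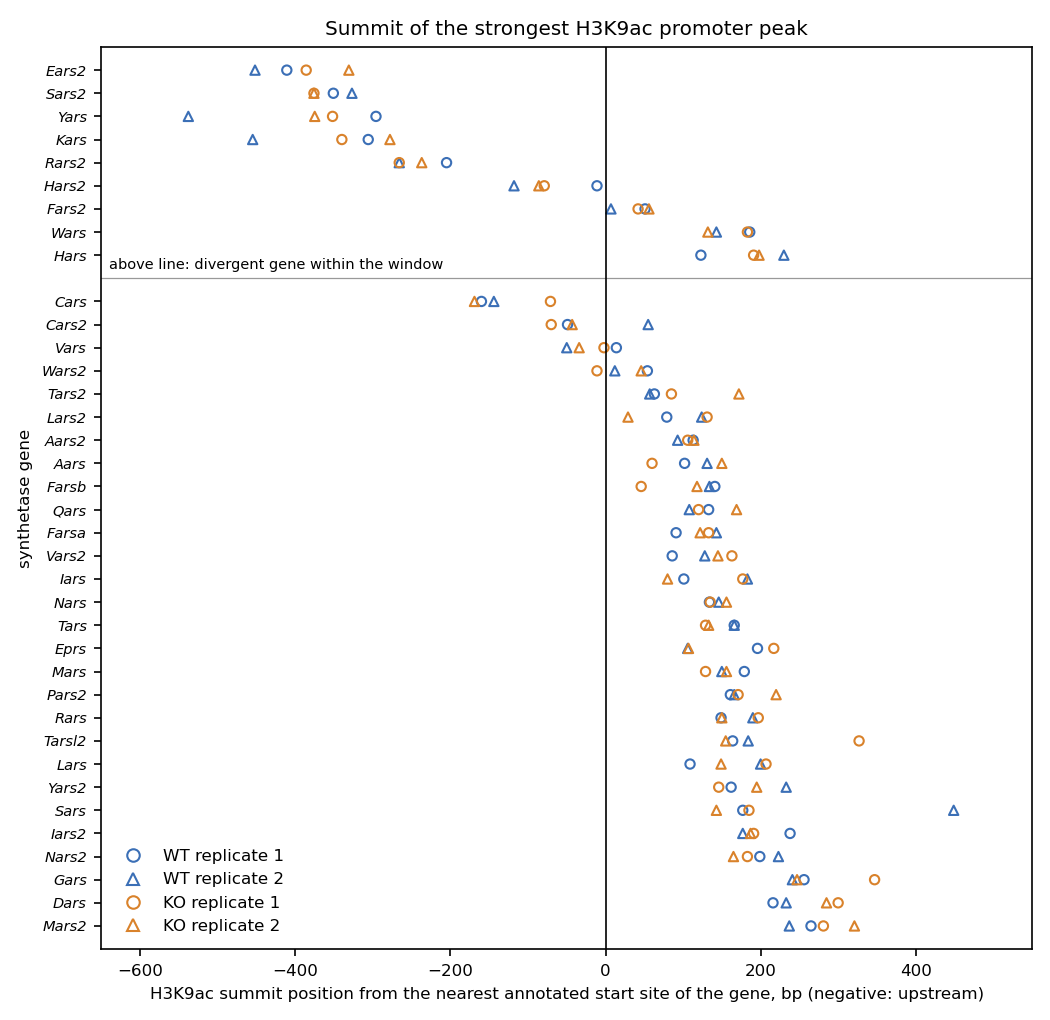
Position in bp of the summit of the strongest H3K9ac promoter peak from the nearest annotated start site of the gene, negative for upstream, in WT (blue) and KO (orange), with circles for replicate 1 and triangles for replicate 2. Above the line are 9 genes with a divergent gene in the window, 6 of which have all symbols upstream, and below it the 28 others, 24 of which have all symbols downstream.

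Whether loss of Kat2a altered these promoters was examined with limma over all genes with a peak in the 4 libraries of a mark, on quantile-normalized log2 values, KO minus WT. No synthetase gene passed an adjusted p of 0.05 in any of the 4 fits. For H3K9ac fold enrichment 0 of 10837 genes passed (background 0%), although 414 had an unadjusted p under 0.05, of which 2 were synthetase genes. For H3K9ac width 0 of 10837 passed (background 0%), with 540 at an unadjusted p under 0.05 and 2 of them synthetase genes. For H3K4me3 fold enrichment 0 of 10247 passed (background 0%), with 552 under 0.05 unadjusted and 5 of them synthetase genes. For H3K4me3 width 1 of 10247 passed (background 0.00976%), Pde3b, a phosphodiesterase gene outside the family, with 567 under 0.05 unadjusted and 4 of them synthetase genes. With 2 replicates per genotype, values that miss the threshold do not show that the genotypes were alike.

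The KO minus WT difference in H3K9ac fold enrichment was centred near the same value in the family as in all genes tested. The log2 difference was below 0 for 21 of 38 synthetase genes, with a median of -0.05 against 0.00 for all genes tested. It was below 0 for 14 of 20 cytosolic genes, with a median of -0.06, and for 7 of 17 mitochondrial genes, with a median of 0.09. In the deposited values, both KO values were below both WT values for 9 of 38 synthetase genes (23.7%), against a background of 19.2% of 10837 genes, and above them for 4 (10.5%), against 10.4%. After quantile normalization the counts were 9 lower and 6 higher, against 15.2% and 15.8% of all genes. The 9 genes with lower deposited values were Aars, Cars, Iars, Iars2, Kars, Rars, Sars2, Tars2 and Vars, of which Aars was no longer separated after normalization, and the 4 with higher values included Cars2, Pars2 and Wars.

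Among the genes with separated values, Tars2, the mitochondrial threonyl enzyme, had the largest decrease. Its H3K9ac fold enrichment was 11.5 and 9.46 in WT and 4.30 and 7.15 in KO, a log2 difference of -0.82 ± 0.39 (SE; limma adjusted p = 0.999). Kars had 11.6 and 8.61 in WT and 5.51 and 6.30 in KO, a log2 difference of -0.65 ± 0.38 (SE; limma adjusted p = 0.999). Sars2 and Vars followed, with both KO values again below both WT values. Sars2 had 17.6 and 21.8 in WT and 12.2 and 16.3 in KO. Kars and Sars2 share promoters with Terf2ip and Mrps12, so these peaks cannot be assigned to either gene of a pair. Vars had 18.6 and 20.3 in WT and 12 and 16.4 in KO. Of the genes with the amino acid response element, Tars, Gars and Yars had overlapping genotypes in the deposited values. Aars and Iars were lower in both KO libraries, as were 19.2% of 10837 genes. Aars was no longer separated after normalization, and a relation to the element was not tested. Aars had 14.2 and 21 in WT and 12.7 and 13.9 in KO. Iars had 7.90 in both WT libraries and 5.63 and 6.33 in KO.

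**Figure D5:**
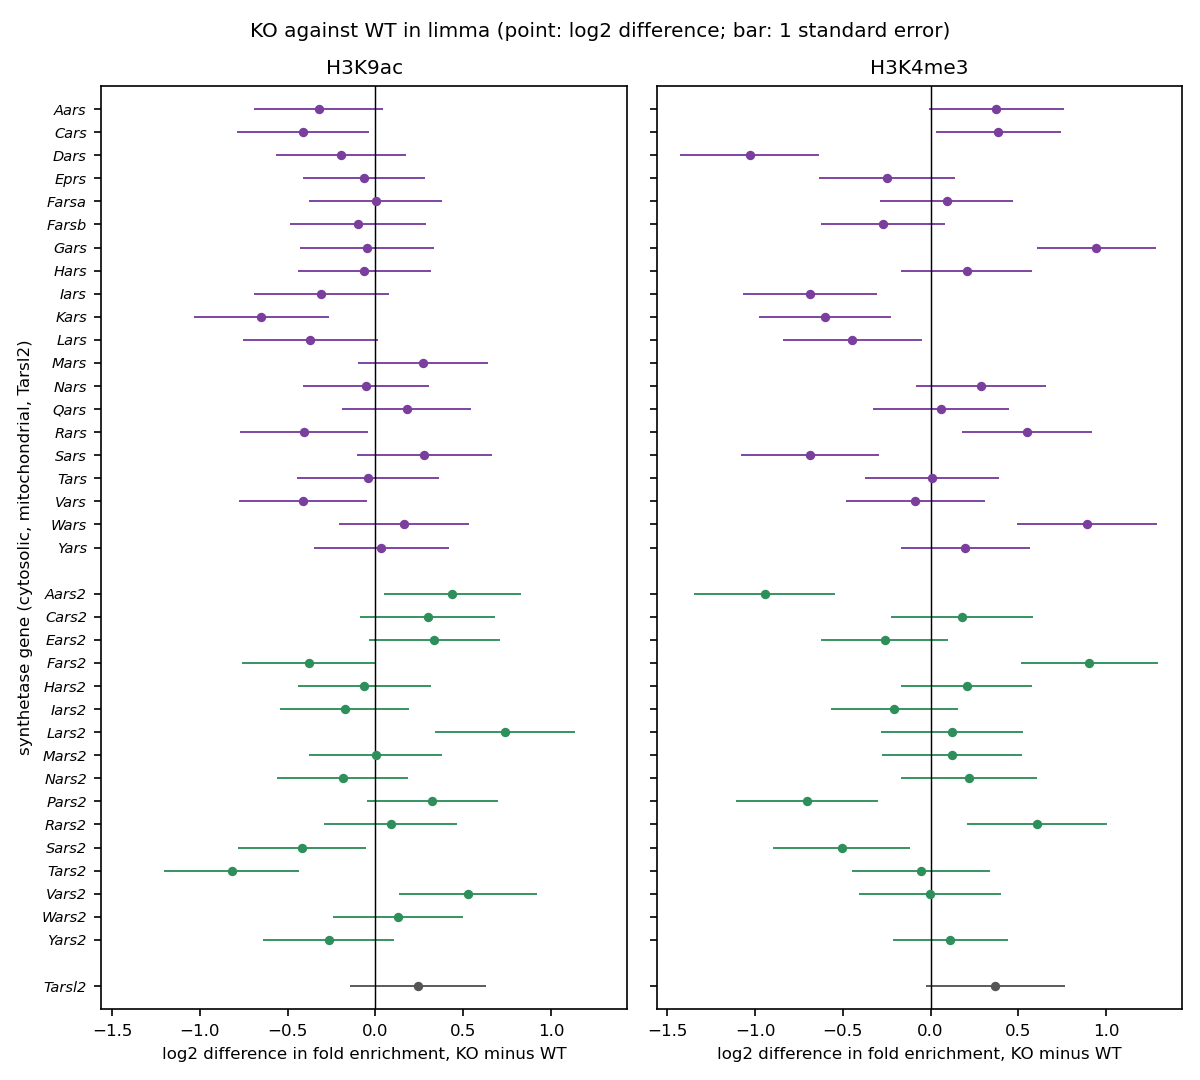
Log2 difference in fold enrichment, KO minus WT, with 1 standard error from limma, for H3K9ac (left) and H3K4me3 (right) at 37 (H3K9ac) and 35 (H3K4me3) synthetase genes, cytosolic in purple, mitochondrial in green and Tarsl2 in grey. The points lie on both sides of 0 in both classes, with Tars2 lowest at -0.82 for H3K9ac, and no gene passed the adjusted threshold.

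The widest H3K9ac promoter peaks of the 10837 genes in the fit were narrower in KO, with a median log2 difference of -0.17 before normalization. Counts on the deposited widths are not corrected for this shift. After quantile normalization the median log2 difference in width was 0.13 for the synthetase genes and 0.04 for all genes tested. It was 0.13 for cytosolic and 0.12 for mitochondrial genes. In the deposited widths, both KO values were below both WT values for 11 of 38 genes (28.9%), against a background of 36.4%, and above them for 2 (5.26%), Ears2 and Pars2, against 4.21%. After normalization the split turned to 3 lower and 12 higher genes, while that of all genes turned from 36.4% lower and 4.21% higher to 13.3% lower and 21.9% higher. Cars, Dars and Nars were lower and Ears2 and Pars2 higher on both scales.

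H3K4me3 agreed less between replicates than H3K9ac. Over all genes in the fits, log2 fold enrichment correlated between replicates at 0.41 in WT and 0.43 in KO for H3K4me3, and at 0.76 and 0.78 for H3K9ac. In the deposited fold enrichments both KO values were below both WT values for 4 of 36 genes (11.1%), against a background of 14%, and above them for Wars alone (2.78%), against 8.92%. For width the counts were 3 lower (8.33%), against 9.97%, and 3 higher (8.33%), against 7.7%. After normalization 9 genes were lower and 7 higher for fold enrichment (25% and 19.4%), against 17.3% and 17.2% of all genes. For width 7 were lower and 9 higher (19.4% and 25%), against 14.9% and 15.6%, so that the shares rose in the family and in the background. Wars, the cytosolic tryptophanyl enzyme, had an H3K4me3 width of 742 and 365 bp in WT and 1104 and 1271 bp in KO, a log2 difference of 1.16 ± 0.37 (SE; limma adjusted p = 0.411). It was the smallest adjusted p of the family in the 4 fits, and WT replicate 2 was the lowest value. Gars had an H3K4me3 fold enrichment of 12.8 and 4.09 in WT and 12.1 and 15.1 in KO. The groups overlapped in these deposited values, but both KO values exceeded both WT values after quantile normalization. Wars and Gars are named here after their values were seen.

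The same fits were read for genes of the wider pathway. Of the 13 accessory genes, 0 passed for H3K9ac fold enrichment, with 2 at an unadjusted p under 0.05 against 414 of 10837 genes in all, 6 below and 7 above 0 and a median log2 difference of 0.00. The Atf4 response list held 14 genes, with Atf4 itself, the amino acid transporters Slc7a5, Slc3a2 and Slc7a11, asparagine synthetase Asns and enzymes of serine and folate metabolism. Phgdh, the entry enzyme of serine synthesis, lacked an H3K9ac promoter peak in all 4 libraries, and of the 13 others 0 passed, with 0 at an unadjusted p under 0.05 against the same 414, 9 below and 4 above 0 and a median of -0.10. Atf4 had an H3K9ac fold enrichment of 18.9 and 37.4 in WT and 18.5 and 27.3 in KO, and its groups overlapped in these deposited values. For Asns it was 7.62 and 8.77 in WT and 5.83 and 6.97 in KO. Both KO values of Asns were below both WT values, as was the case for 19.2% of 10837 genes. For H3K9ac width, H3K4me3 fold enrichment and H3K4me3 width, 0 genes of either list passed. At an unadjusted p under 0.05 for H3K9ac width there were 3 of 13 genes of the Atf4 list and 0 of 13 accessory genes, against 540 of 10837 genes in all. For H3K4me3 width there were 2 of 10 and 0 of 12, against 567 of 10247. The median log2 difference in H3K4me3 fold enrichment was -0.30 over 10 genes and 0.00 over 12.

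H3K27ac was read from replicate 2, with 1 library per genotype and therefore no test. A promoter peak was present at 37 of 38 synthetase genes in WT and at the same number in KO (97.4%). The exception in both was Pars2. Among all genes the shares were 44.3% and 49.8%, and among genes with H3K4me3 in all 4 libraries they were 87.6% and 94.5%. The median KO to WT ratio of fold enrichment was 1.34 over the 37 genes and 1.38 over 9634 genes with a peak in both, and 31 of 37 synthetase genes (83.8%) were above 1, against 82.1%. A ratio of at least 2 was reached by Farsb, Qars, Rars2 and Tars, 4 of 37 (10.8%), against a background of 14.5%. For width it was reached by 6 of 37 (16.2%), against 25%. Tars, the threonyl enzyme, was in both groups, with a fold enrichment of 3.99 in WT and 8.69 in KO and a width of 394 bp in WT and 1051 bp in KO. The KO list was the longer, with 46047 against 29757 peaks. Replicate 1 held a peak at 9 synthetase genes in WT, 23.7% against 12.7% of all genes and 23.9% of genes with H3K4me3 in all 4 libraries, and at 0 in KO, where the whole list had 2725 peaks. Of all peaks in these replicate 1 lists, 0.0485% (WT) and 0% (KO) had a q-value up to 0.05.

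H3K4me1 promoter peaks were found at 9 synthetase genes in WT replicate 2 and at 25 in KO replicate 2. These were 23.7% and 65.8% of the family, against 18.4% and 37.2% of all genes and 29.5% and 61.3% of genes with H3K4me3 in all 4 libraries. With peaks at q-values up to 0.05 alone the counts were 4 and 24, against 7.40% and 33.6% of all genes. Within 2 kb on each side of the start sites they were 17 and 35, against 30% and 48.8%. The WT list also stood apart from the KO list in that 34.3% of its peaks had a q-value up to 0.05, against 83.6%. The 9 were 4 cytosolic genes (Cars, Vars, Wars, Yars) and 5 mitochondrial genes (Fars2, Hars2, Iars2, Pars2, Vars2), and all 9 also had a peak in KO. The 25 were 12 cytosolic and 12 mitochondrial genes and Tarsl2. Thus 16 of 38 genes (42.1%) had a peak in KO alone. The background was 22.9% of all genes and 37.8% of genes with H3K4me3 in all 4 libraries. In WT alone 0 synthetase genes had one, against 4.00% of all genes and 5.91% of genes with H3K4me3 in all 4 libraries. The KO list held 78042 peaks and the WT list 45770. With the strongest 45770 peaks of each list, a choice made after seeing the data, the count was 9 in WT (23.7%) and 18 in KO (47.4%), against 18.4% and 26.2% of all genes and 29.5% and 43.9% of genes with H3K4me3 in all 4 libraries. Replicate 1 held a peak at 0 synthetase genes in WT and at Tars alone in KO. With 1 library per genotype, list length, peak strength and genotype cannot be told apart.

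Tarsl2 was among the weaker promoters of the family. Its H3K9ac fold enrichment was 5.62 and 5.00 in WT and 4.29 and 8 in KO, and its H3K9ac width was 868 and 746 bp in WT and 731 and 920 bp in KO. Its H3K4me3 fold enrichment was 5.07 and 4.74 in WT and 4.27 and 8.71 in KO. For each of these deposited quantities WT lay within the KO range, but after quantile normalization both KO values of H3K9ac width exceeded both WT values. The latter held for 21.9% of 10837 genes.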

How the data were processed

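ChIP-seq peak lists of 16 libraries were analysed. Per the submitters' processing notes the authors used BWA, MACS2 and mm10; versions are not given in the sources used here. The deposited lists, called per library, hold positions, widths and summits in bp, fold enrichment as a ratio and −log10 q-values as written by the authors' caller. The lists also hold peaks with q-values above 0.05, the limit stated in the paper, and all deposited peaks were used. Peaks were joined wherever they shared any base with windows of 1000 bp upstream to 500 bp downstream of GENCODE M21 start sites, in Python 3.11.15, and the join was checked against bedtools 2.31.1 on simulated intervals. log2 fold enrichment and log2 width were compared with limma 3.58.1 (R 4.3.3, trend and robust options, Benjamini-Hochberg adjustment), after tests on simulated data. P-values measure the spread between samples of the same pools. Genes without a peak in a library of a mark were left out of its fit. Other scalings, q-value limits, windows, overlaps, left-out libraries and a replicate block were tried. Named genes were drawn, in each class, from the 3 widest and 3 narrowest H3K9ac peaks, those lacking a peak, and the 5 largest H3K9ac differences without overlap; others were chosen after their values were seen. The members and lists were chosen with earlier results of these data known.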

Additional observations from a re-analysis of the deposited data

How the results depend on the processing

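The fits of H3K9ac fold enrichment, H3K9ac width and H3K4me3 fold enrichment called 0 genes under every alternative tried. The H3K4me3 width fit called 1 gene, and 7 after median centring, 0 without normalization, 9 with the replicate block, 4 with the outermost start site, and 0 to 7 with each library left out in turn, where the lone sample was assumed to vary like the others; no synthetase gene was called in any of these. Whether same-numbered replicates share more than a number is unknown: replicate 1 of H3K27ac and H3K4me1 stood apart in both genotypes, and deviations of the replicates correlated across genes at 0.129 and 0.134 for H3K9ac and 0.00 and -0.05 for H3K4me3, and the replicate block changed no other call. Replicate 1 alone gave H3K27ac peaks at 9 synthetase genes in WT and 0 in KO, and H3K4me1 peaks at 0 and 1; requiring both replicates gave 9, 0, 0 and 0. The H3K4me1 WT count of 9 was 4 at q-values up to 0.05, 5 with the outermost start site and 17 within 2 kb on each side. Without divergent promoters the cytosolic minus mitochondrial width was 88.4 bp for H3K4me3, 393 bp for H3K9ac and 313.5 bp for H3K27ac, in place of -25, 185 and 52.5 bp, and the H3K9ac ratio of fold enrichment was 1.56 in place of 1.19. For H3K4me1 the width difference of 40.8 bp was -101 bp with the outermost start site, -42.5 bp at 50% overlap and -17.5 bp within 2 kb, so that its sign was not settled, and the ratio of fold enrichment of 0.999 was 1.01 at q-values up to 0.05, 0.942 at 50% overlap, 0.929 with the outermost start site, 0.940 within 2 kb, 0.997 or 1.00 with Tarsl2 counted as mitochondrial or cytosolic, and 1.08 without divergent promoters. The cause was not tested. The 145 values not labelled as moved, among them the last 2 widths at 50% overlap and 2 kb, stayed within the spread between libraries or within 1.5 times. Fold enrichment and width both depend on read depth, which is unknown.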
